A study of Mus musculus with 3 samples.

Results

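The aminoacyl-tRNA synthetase genes were examined: 39 of the 55536 Ensembl genes measured, or of the 21901 with at least 1 transcript annotated as protein_coding. Members were found by gene symbol alone (a single-letter amino acid code followed by ars, with or without 1 or 2, together with Eprs, Farsa, Farsb, Aimp1 and Aimp2), and the rule used no measured value. They were 20 genes for cytosolic enzymes or enzyme subunits, 17 for mitochondrial enzymes and 2 for scaffold proteins. The series is 1 group of 3 total RNA-seq libraries, called replicates 1 to 3. Each started from 1 µg of cytosolic RNA, depleted of ribosomal RNA, of macrophages, primary cells grown from bone marrow of C57BL/6J mice. All cells had been given Lipid A, the lipid anchor of bacterial lipopolysaccharide, which signals through TLR4, at 100 ng/ml for 10 minutes. No untreated cells were measured, so the values are levels after stimulation and cannot show a response to it. Sex and age were not collected, and the labels name 1 donor for all 3 libraries without saying how many animals or cultures were used.

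Aminoacyl-tRNA synthetases attach each amino acid to its transfer RNAs and so set the reading of the genetic code. Animal cells keep separate nuclear genes for the enzymes of the cytosol and of mitochondria, with exceptions: Gars and Kars each serve both compartments, and mitochondria make glutaminyl-tRNA by an indirect route. Part of the cytosolic enzymes sits in a multisynthetase complex held together by Aimp1, Aimp2 and Eef1e1. The enzymes fall into 2 unrelated structural classes, I and II. Several of their genes are known targets of the factor ATF4, which acts when amino acids run short.

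Libraries held 33825547, 54667365 and 43176007 expected counts over genes in replicates 1, 2 and 3, and single members held between 100 and 7827 counts in a library. Each of 8 macrophage markers reached 1 TPM (a level of transcripts that allows for their length) in all 3 libraries, among them Lyz2 at 4969.7 ± 427 TPM (SD, n = 3) and Csf1r at 289 ± 18.0 TPM. The defining genes Ly6g of neutrophils, Hba-a1 of red cells and Pdgfra of stromal cells were at 0. Summed levels in replicates 1, 2 and 3 were 21.9, 35.2 and 33.1 TPM for 6 neutrophil markers, nearly all of it S100a8 and S100a9, and 0.690, 1.36 and 1.06 TPM for 4 dendritic cell markers. They were 0.150, 0.120 and 0.160 TPM for 4 T and NK cell markers, and 5.74, 4.47 and 5.55 TPM for 4 B cell markers, of which Ighm gave most. The libraries stood apart in 2 lists: replicate 3 had the highest level of all 12 cell division genes, and replicate 1 that of all 5 nuclear RNAs tested.

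Sequences of 2 kinds bear on what follows. The first are stretches that tell transcripts of 1 gene apart, read from mm10 with the GENCODE M21 annotation. Kars encodes both forms of lysyl-tRNA synthetase: the cytosolic form starts in the first exon, and the mitochondrial form starts in the second, whose codons add a mitochondrial targeting sequence. The coding start of each is shown on the minus strand, with the start codon in capitals, at chr8:112011210-112011268 for Kars-201 and chr8:112008207-112008352 for Kars-202.
Kars-201: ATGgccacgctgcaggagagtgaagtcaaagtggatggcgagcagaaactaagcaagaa
Kars-202: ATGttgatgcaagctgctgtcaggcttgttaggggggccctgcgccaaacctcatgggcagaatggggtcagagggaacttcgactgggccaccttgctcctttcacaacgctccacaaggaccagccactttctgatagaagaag
For Qars, the stretch shown is the 49 bases at the end of the second exon (chr9:108508482-108508530, plus strand) that the coding transcript Qars-203 holds and the decay-annotated Qars-231 lacks.
Qars-203: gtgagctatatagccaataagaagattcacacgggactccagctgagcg

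The second kind are promoter stretches with the letters TGATGNAA, the core of the element that ATF4 and its C/EBP partners bind, searched on both strands in RefSeq windows from 250 bases before to 50 after the start (GRCm38.p6). No other motif was searched. Of the 39 members, 29 matched a window, and 5 of these held the letters, among them Gars, Iars, Tars and Yars. All 5 were among the 13 cytosolic enzymes with a window. None of the 14 mitochondrial enzymes or the 2 scaffolds held them, and 3.97% of all 32851 windows did. Members are counted by gene, some with 2 windows, and the background by window, so the shares are not of the same unit. In Iars and Yars the only match lay after the start, at bases 8 to 15 and 4 to 11. Of the members with a match before the start, Gars and Tars are shown on their gene's strand with the match in capitals, read on the reverse strand of the motif. These stretches are Gars (chr6:55037960-55037989, plus strand) and Tars (chr15:11399659-11399684, minus strand), in which the last matched base stands 23 and 8 bases before the start.
Gars: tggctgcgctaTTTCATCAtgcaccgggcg
Tars: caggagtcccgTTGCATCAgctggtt
A match of letters describes these windows and is not a measured binding site.

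Cytosolic and mitochondrial levels were compared first. All 20 cytosolic genes, 11 of the 17 mitochondrial genes and both scaffolds reached 1 TPM in all 3 libraries, 33 of 39 members in all. Among all genes with a protein_coding transcript this share was 41.8%. The median cytosolic gene stood at 9.29, 10.1 and 11.0 TPM in replicates 1, 2 and 3, and the median mitochondrial gene at 1.5, 2.08 and 2.51 TPM. The cytosolic genes summed to 216, 230.5 and 248 TPM and the mitochondrial genes to 38.9, 41.4 and 46.5 TPM. The median over all 9379 protein-coding genes whose mean reached 1 TPM was 7.31 ± 0.419 TPM, so the median cytosolic gene lay above it and the median mitochondrial gene below. In each library the cytosolic list was higher, by 2.04, 1.85 and 1.78 on the log2(TPM + 1) scale (mean 1.89 ± 0.14, SD, n = 3), a difference many times its spread between replicates. The 1 added to each TPM understates the differences of low genes. A two-sided exact sign-flip test over 3 libraries cannot go below p = 0.25, so no test is given for the differences of levels.

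**Figure D1:**
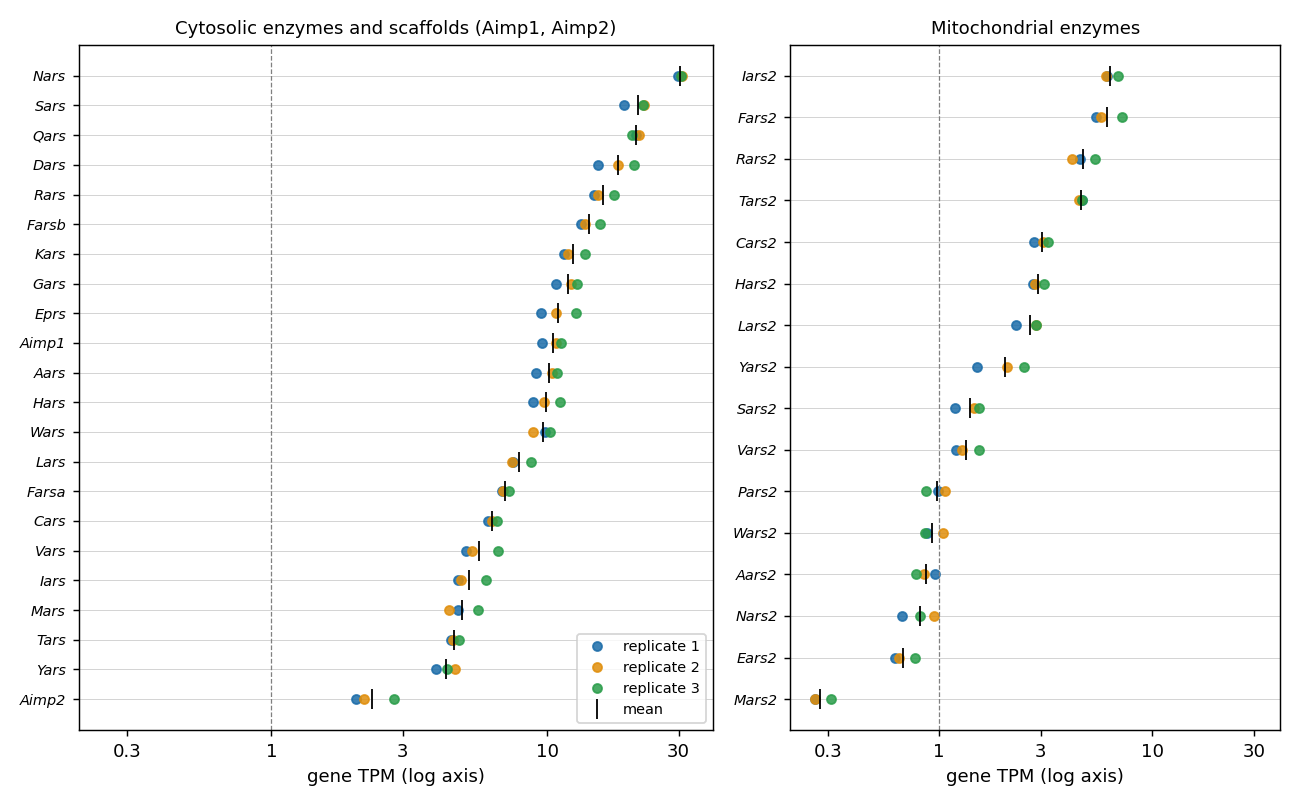
TPM of members (log axis) in the 3 libraries, with the mean as a vertical bar; cytosolic enzymes and the scaffolds Aimp1 and Aimp2 are on the left, mitochondrial enzymes on the right. All cytosolic enzymes lie right of the dashed line at 1 TPM, from Yars at 4.31 to Nars at 30.4 TPM, while mitochondrial enzymes run from Mars2 at 0.277 to Iars2 at 6.36 TPM.

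Nars, the asparaginyl enzyme (ENSMUSG00000024587.10), was the highest member, at 29.8, 31.0 and 30.5 TPM in replicates 1, 2 and 3. It stood above 86.4% of the 9379 expressed protein-coding genes, and no library of another member reached its lowest library. Sars, which charges serine and is also the first step of selenocysteine synthesis, was at 19.1, 22.5 and 22.3 TPM. Qars, which charges glutamine (ENSMUSG00000032604.16, chromosome 9, 108507706 to 108515941), was at 21.1, 21.5 and 20.3 TPM. The ranges of Sars and Qars overlapped, so their order was not larger than the spread between libraries. Dars, for aspartate, was at 15.3, 18.1 and 20.7 TPM, a range that overlapped those of Sars and Qars, and Rars, for arginine, at 14.8, 15.4 and 17.5 TPM. The ranges of Dars and Rars overlapped as well. At the low end stood Mars, for methionine, at 4.74, 4.40 and 5.62 TPM, Tars, for threonine, at 4.48, 4.57 and 4.78 TPM, and Yars, for tyrosine, at 3.95, 4.64 and 4.34 TPM. These 3 ranges overlapped too. The other 12 cytosolic genes had means from 5.22 TPM (Iars) to 14.1 TPM (Farsb).

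Among mitochondrial enzymes, Iars2, for isoleucine (ENSMUSG00000026618.11, chromosome 1, 185284726 to 185329396), was highest at 6.11, 6.07 and 6.89 TPM. Fars2, for phenylalanine, was at 5.46, 5.76 and 7.22 TPM, a range that contained all 3 values of Iars2. Next were Rars2 at 4.57, 4.19 and 5.41 TPM, Tars2 at 4.70, 4.52 and 4.70 TPM and Cars2 at 2.80, 3.08 and 3.25 TPM. By mean TPM Iars2, Fars2, Rars2 and Tars2 were higher than Yars, the lowest cytosolic enzyme, and 13 of the 17 mitochondrial genes were below every cytosolic gene. The 6 members under 1 TPM in at least 1 library were all mitochondrial. Pars2 and Wars2 crossed that level between libraries, with means of 0.973 ± 0.0961 and 0.927 ± 0.0987 TPM, and Aars2 was at 0.863 ± 0.0907 TPM. Nars2 was at 0.670, 0.950 and 0.810 TPM and Ears2, for glutamate, at 0.620, 0.650 and 0.770 TPM. Mars2 was lowest, at 0.260, 0.260 and 0.310 TPM. Its only annotated transcript is 11294 bases long, and its counts were not low: 195, 292 and 259 in the 3 libraries, more than the 100, 162 and 139 of Ears2. TPM divides by that length.

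Each amino acid with a separate gene for each compartment was then compared within libraries. Of 18 such pairs, the cytosolic gene was higher in all 3 libraries in 16. The pairs are not all separate: Eprs was set against both Ears2 and Pars2, and both Farsa and Farsb against Fars2. The largest difference was for asparagine: Nars stood 37.6-fold above Nars2 by mean TPM, or 4.12 ± 0.08 higher on the log2(TPM + 1) scale. Sars exceeded Sars2 15.3-fold (3.22 ± 0.03), and Eprs, the fused glutamyl and prolyl enzyme, exceeded Ears2 16.2-fold (2.83 ± 0.13). The ratio of Mars to Mars2 was 17.8 in TPM, which divides by the length of the Mars2 transcript, and their counts were 651, 1016 and 910 for Mars against 195, 292 and 259 for Mars2. These pairs differed far more than their libraries did.

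The exceptions were isoleucine and threonine. In the second quantification, described below, leucine was an exception as well. Iars2 was higher than Iars in all 3 libraries: Iars (ENSMUSG00000037851.13, chromosome 13, 49682100 to 49734267) was at 4.75, 4.88 and 6.03 TPM and the ratio of Iars to Iars2 was 0.777, 0.804 and 0.875. The 2 ranges did not overlap, with a mean difference of -0.25 ± 0.07 on the log2 scale. Exons of Iars2 overlap Rab3gap2, which is read from the opposite strand and stood at 17.6 TPM on average. Whether counting used strand is not given in the sources used here, so reads of the 2 genes may not be told apart. Tars and Tars2 were level, with differences of -0.06, 0.01 and 0.02 and overlapping ranges. Farsa, the catalytic subunit of the cytosolic phenylalanyl enzyme, was 0.29, 0.23 and 0.01 above Fars2, and their ranges overlapped, while its partner subunit Farsb was 1.09 ± 0.07 above Fars2. The 2 subunits form 1 enzyme in equal numbers, yet Farsb stood at 13.3, 13.7 and 15.5 TPM and Farsa at 6.89, 6.92 and 7.29 TPM, with no overlap. Restricted to protein_coding transcripts, an alternative chosen after the values were seen, Farsa was 0.81 ± 0.01 above Fars2, Tars was 0.09 ± 0.02 above Tars2, and 17 of 18 pairs had the cytosolic gene higher in every library. The pair of isoleucine kept its order at -0.24 ± 0.07.

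**Figure D2:**
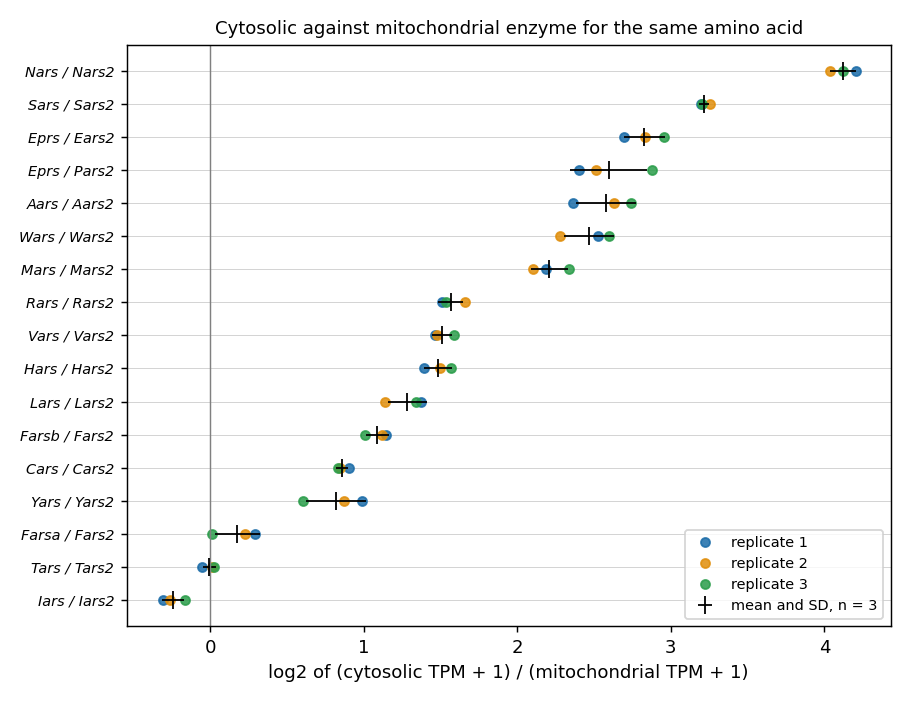
Log2 ratio of the cytosolic to the mitochondrial gene of an amino acid (horizontal axis, 1 TPM added to each) in the 3 libraries, with the mean and SD. Most pairs lie right of 0, with Nars and Nars2 at 4.12, while Tars and Tars2 lie at -0.01 and Iars and Iars2 at -0.25.

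Glycine and lysine have 1 gene for both compartments. Gars was at 10.7, 12.2 and 12.8 TPM, and 1 transcript, Gars-201, took 99.8% ± 0.377 of it. The 2 forms of the glycyl enzyme start at different codons of the same transcript, so these tables do not divide them. Kars (ENSMUSG00000031948.14, chromosome 8, 111993443 to 112011323) was at 11.5, 11.9 and 13.8 TPM. Its cytosolic transcript Kars-201 took 80.7%, 86.8% and 89.0% of the gene's TPM. The 3 transcripts whose coding sequence starts in the second exon shown above took 17.7%, 12.5% and 10.9%, or 2.03, 1.48 and 1.5 TPM. The mean share was 13.7% ± 3.54, and 16.9% ± 3.30 in the second quantification, which the authors made from the same reads by another procedure. In both quantifications the share was highest in replicate 1 and lowest in replicate 3. At 1.67 ± 0.312 TPM, the mitochondrial Kars transcripts lay inside the range of the 17 separate mitochondrial genes, whose median was 2.03 ± 0.507 TPM. That median counts all transcripts of a gene, while the Kars value counts protein_coding transcripts alone, so the measures differ. Mitochondria lack a glutaminyl enzyme and form glutaminyl-tRNA from glutamyl-tRNA through an amidotransferase of 3 subunits. Their genes were at 6.54 ± 0.333 TPM (Gatc), 2.16 ± 0.359 TPM (Gatb) and 1.29 ± 0.0503 TPM (Qrsl1), with Ears2, which supplies the glutamyl-tRNA, at 0.680 ± 0.0794 TPM.

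Membership of the multisynthetase complex went with little difference in level. The 8 complex enzymes (Dars, Eprs, Iars, Kars, Lars, Mars, Qars and Rars) had a median of 11.7 ± 1.42 TPM and the other 12 cytosolic genes one of 9.62 ± 0.830 TPM. The difference was 0.20, 0.25 and 0.30 on the log2(TPM + 1) scale. Over protein_coding transcripts alone it was -0.07, so its direction depends on how noncoding transcripts of Qars and other members are counted. Levels within the complex ran from 4.92 ± 0.630 TPM (Mars) to 20.95 ± 0.597 TPM (Qars). The scaffolds differed from each other: Aimp1 was at 9.55, 10.8 and 11.2 TPM and Aimp2 at 2.03, 2.17 and 2.78 TPM, with no overlap. Eef1e1, the third scaffold protein, was at 1.68, 2.22 and 2.22 TPM.

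Class separated the cytosolic genes more than the complex did, a comparison chosen after the values were seen. The 9 class I genes had a median of 6.34 ± 0.266 TPM and the 10 class II genes one of 12.1 ± 1.09 TPM. Eprs, which holds a catalytic part of each class, was left out. Class I was lower by 0.77, 0.83 and 0.91 on the log2(TPM + 1) scale in replicates 1, 2 and 3. The difference was -1.01 ± 0.03 over protein_coding transcripts. Classes overlapped gene by gene, since Qars and Rars of class I were among the 5 highest and Tars of class II was among the 3 lowest. The medians of the mitochondrial classes were close, at 2.03 ± 0.507 TPM for 9 class I genes and 1.94 ± 0.373 TPM for 8 class II genes.

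Enzyme levels were set beside the codons of the messenger RNA pool, as the share of each amino acid among the codons of 26692 protein_coding transcripts weighted by TPM. Leucine had the largest codon share, 9.65%, and its enzyme gene Lars was at 7.91 ± 0.725 TPM. Tryptophan had the smallest, 1.21%, and Wars was at 9.65 ± 0.676 TPM. Asparagine, with 3.94% of codons, had the highest enzyme. Across the 20 amino acids the codon share and the log2(TPM + 1) of the cytosolic enzyme had a Pearson correlation of 0.20 and a Spearman correlation of 0.30. Over protein_coding transcripts these were 0.24 and 0.34. The points share the same libraries, glutamate and proline share Eprs, and phenylalanine is the mean of Farsa and Farsb, so the values are a description.

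**Figure D3:**
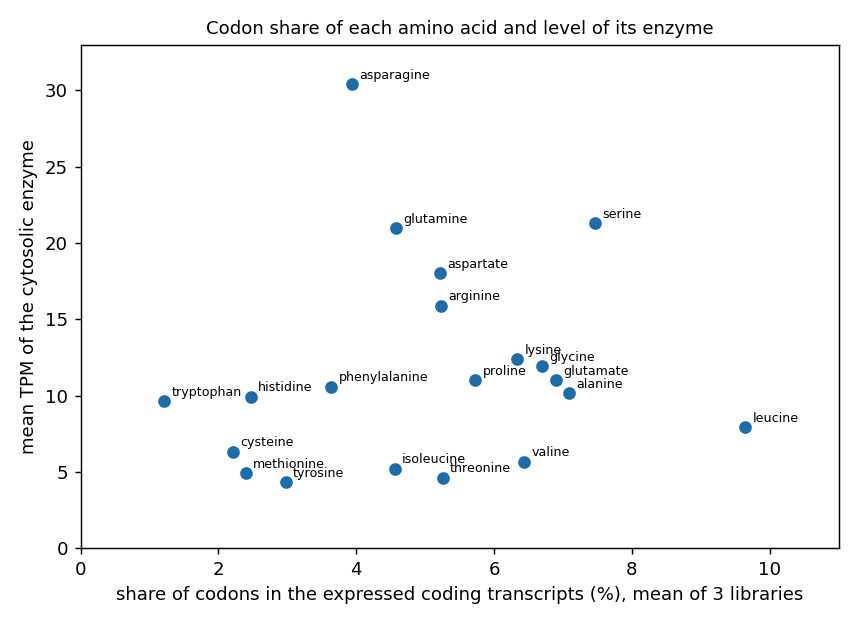
Mean TPM of the cytosolic enzyme of each amino acid (vertical axis) against the share of that amino acid among codons of expressed coding transcripts in percent (horizontal axis), each point 1 amino acid and a mean of 3 libraries. Points do not follow a line: tryptophan, at 1.21% of codons, lies higher than leucine, at 9.65%.

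The part of each gene's TPM in transcripts not annotated as protein_coding was examined next. Over members whose mean reached 1 TPM its median was 4.94% ± 1.53 (SD, n = 3), against 2.21% ± 0.673 over all protein-coding genes at that level. With each gene's share first averaged over libraries, the median was 3.06% for cytosolic and 10.0% for mitochondrial members at that level. It was 2.45% for all those genes, so the cytosolic members lay near it and the mitochondrial members above. These sets were not matched for level. The median over all 17 mitochondrial genes was 2.03 TPM, against 7.31 TPM over the protein-coding genes whose mean reached 1 TPM. Over members at 5 TPM or more the median share was 2.76%. The part of level in the mitochondrial share was not tested. In replicates 1, 2 and 3 the member median was 6.70%, 4.29% and 3.85% and that of all genes 2.96%, 2.00% and 1.67%, so both were highest in replicate 1, where the nuclear RNAs were highest too. Their part in the shares was not tested. The share exceeded 25% in 6 of the 33 members whose mean reached 1 TPM, among them Qars, Cars, Cars2, Fars2 and Vars2. This was not far from the background, 14% of the 9375 genes with a share. These are shares of TPM assigned to annotated models, and TPM weighs a short transcript more than its share of counts. Of the expected counts, noncoding transcripts held 65.4% ± 3.73 in Qars, 44.9% ± 3.13 in Cars2, 14.5% ± 3.33 in Fars2, 11.3% ± 8.32 in Vars2 and 7.42% ± 2.81 in Cars. Reads over single junctions or introns were not examined.

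Qars had the largest share, at 66.7%, 64.5% and 63.4% in replicates 1, 2 and 3. Its leading transcript was Qars-231, annotated for nonsense-mediated decay, which destroys messenger RNAs with an early stop codon. It took 41.1%, 42.8% and 43.8% of the gene's TPM, and Qars-203, a coding transcript, 22.9%, 20.5% and 30.4%. Qars-231 lacks the 49 bases shown above and carries a 72-base exon (chromosome 9, 108511139 to 108511210) that Qars-203 does not. The second quantification gave Qars-231 47.9% and Qars-203 18.6%. Counting protein_coding transcripts alone, Qars stood at 7.37 ± 0.316 TPM, below Gars, Kars and Rars rather than among the 3 highest members. In the first quantification, all other members except Fars2 had a protein_coding transcript as their leading one. In the second, Lars2 was among further exceptions, led by Lars2-205, annotated as retaining an intron, at 47.9%.

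Fars2 had noncoding shares of 42.9%, 44.6% and 53.2%, led by the 506-base processed transcript Fars2-206 at 36.4%, 37.0% and 34.8% of the gene's TPM but 9.57%, 11.95% and 12.06% of its counts. Its protein_coding transcripts came to 3.12, 3.19 and 3.38 TPM. For Cars2 the shares were 50.5%, 55.5% and 51.4%. Cars had 41.8%, 33.2% and 24.96%, most of it in Cars-211, a 558-base transcript annotated for decay that held 5.46% ± 1.01 of the counts, and Vars2 had 35.8%, 23.4% and 25.8%. Exons of Cars2 and Naxd overlap on opposite strands, as do those of Fars2 and Lyrm4, so strand limits these shares as well. Wars, the tryptophanyl enzyme, which is known also as a secreted protein and as an interferon-induced gene, had 92.3% ± 3.24 of its TPM in Wars-201. The gene was at 9.82, 8.91 and 10.2 TPM and was not called different between libraries by the chi-square test of counts (adjusted p = 0.277).

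**Figure D4:**
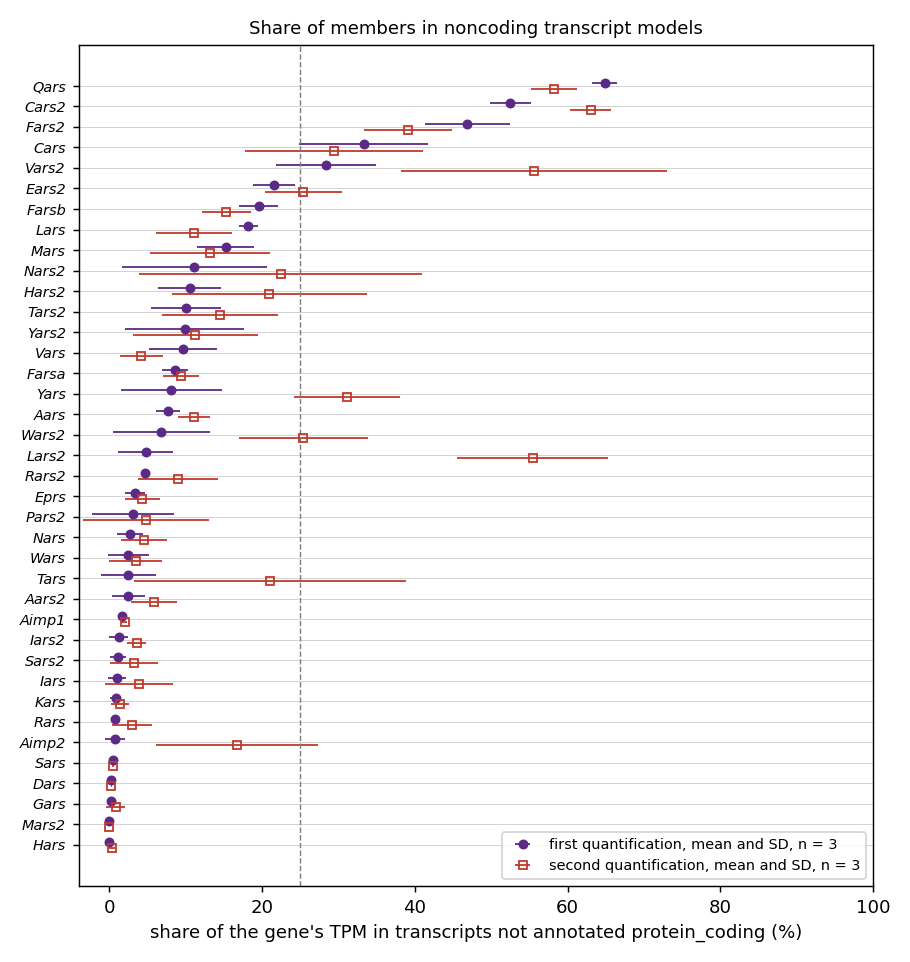
Share of a member's TPM in transcripts not annotated protein_coding (horizontal axis, percent), as mean and SD over 3 libraries in the first (filled) and second (open) quantification, with a dashed line at 25%. Qars lies at 64.8% and 58.3%, while Lars2 lies at 4.78% in the first and 55.5% in the second.

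The 2 quantifications were compared gene by gene after setting both to the same total over protein-coding genes. Only Lars2, the mitochondrial leucyl enzyme, differed 2-fold or more, being higher in the second by 1.96 ± 0.45 on the log2 scale, 1 of 39 members against 0.682% of 9379 genes. On that common scale it was at 9.44, 11.8 and 10.9 TPM in the first and 42.7, 57.3 and 29.8 TPM in the second. Its cytosolic counterpart Lars was at 27.8, 30.7 and 30.6 TPM in the second. The order of the leucine pair thus depended on the quantification, with Lars2 above Lars there in replicates 1 and 2. A single 889-base transcript, Lars2-205, annotated as retaining an intron, took 57.6%, 43.2% and 42.9% of the gene's TPM in the second quantification and 3.06%, 0 and 0 in the first. Iars kept its total (0.00 ± 0.02) but not its transcript: Iars-206 took 99.0% ± 1.18 of it in the first quantification and Iars-201, 30 bases shorter, 89.9% in the second. The leading transcript was the same in both for 36 members.

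With 1 group, the only test across genes asked whether a gene's counts differed between libraries beyond counting error. It was a chi-square test of rounded expected counts against TMM-scaled library sizes, with Benjamini-Hochberg adjustment over 13494 genes at 0.05. It called 20 of 39 members (51.3%), a share near the background of 49.2%. They were 14 of 20 cytosolic genes, 5 of 17 mitochondrial genes and Aimp1. Mitochondrial genes held fewer counts, which lowers what the test can call. The differences were small. The highest library was 1.3 times the lowest or more in 3 of the members called (Aars2, Lars2 and Yars2). Such a call was made for 18.8% of all genes tested, and for 996 of 9376 protein-coding genes whose mean reached 1 TPM. The median ratio was 1.13 over all members, 1.12 over those protein-coding genes and 1.16 over all genes tested. These sets differ in level, and the members stood between the backgrounds. Among cytosolic enzymes the largest ratio was 1.25.

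Yars2, the mitochondrial tyrosyl enzyme, had 3.96, 5.44 and 6.06 CPM (counts scaled to library size) in replicates 1, 2 and 3, a highest to lowest ratio of 1.53 (chi-square test, adjusted p = 0.000789). Lars2 was at 14.7, 19.7 and 16.6 CPM, highest in replicate 2 (ratio 1.34, adjusted p = 5.07e-07). Aars2 ran the other way, at 5.72, 4.99 and 4.23 CPM (ratio 1.35, adjusted p = 0.0287), and was the only member called that was highest in replicate 1. Among cytosolic genes, Vars was at 30.1, 34.7 and 37.7 CPM (ratio 1.25, adjusted p = 4.65e-07). Dars was at 56.5, 67.3 and 70.6 CPM and Eprs at 84.6, 96.2 and 105 CPM, both lowest in replicate 1 and highest in replicate 3. The p-values compare these libraries and not conditions.

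Replicate 1 was the lowest library for 26 of 39 members on TMM-scaled CPM, against 40.9% of tested genes with a protein_coding transcript. Called and lowest there were 16 of 39, against 21.6% of those genes. Called and highest in replicate 3 were 13 of 39, against 19.9%. The numbers were the same with DESeq2 size factors, while on the deposited TPM replicate 1 was lowest for 29. On the deposited TPM the median expressed protein-coding gene was 0.13 (log2) higher in replicate 3 than in replicate 1, against 0.02 on TMM-scaled CPM. The median member was 0.24 higher in replicate 3 than in replicate 1 on the first scale and 0.14 on the second. Without replicate 1, 8 members were called, against 27.5% of genes, and without replicate 3, 13 were, against 34.4%.

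Other gene lists moved between the same libraries. Of the cell division genes, 12 of 12 were called with replicate 3 highest (19.9% of tested genes with a protein_coding transcript), for example Top2a at 25.5, 29.0 and 80.6 CPM, while 9 of 10 interferon-induced genes were called with replicate 1 highest (17.4%), for example Ifit2 at 713, 535 and 451 CPM. The nuclear RNAs ran the same way, with Malat1 at 3715, 2330 and 1871 CPM. Their part in the differences of the members was not tested. In libraries of bulk RNA, fewer cells of a kind and less RNA per cell cannot be told apart.

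**Figure D5:**
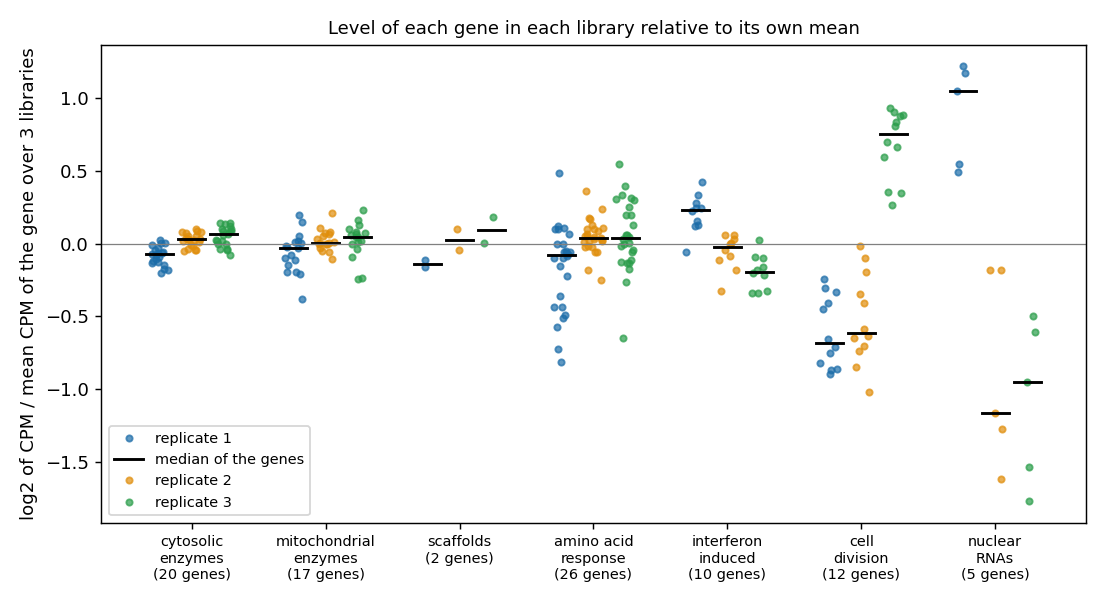
CPM of each gene in each library relative to its own mean over 3 libraries (vertical axis, log2), for the 3 groups of members and 4 other lists, with the median of the genes as a bar. The members spread little, with cytosolic genes lowest in replicate 1, beside the wide shifts of cell division genes upward in replicate 3 and of nuclear RNAs upward in replicate 1.

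Genes around the synthetases were taken from lists written by function. Of 18 matched partners of tRNA charging, 5 were called, below the background of 49.2%. Osgep, which modifies the base beside the anticodon, was highest at 11.2 ± 1.19 TPM, then Prorsd1 at 9.02 ± 0.465 TPM, Xpot, the exporter of tRNA from the nucleus, at 7.61 ± 1.05 TPM and Trnt1, which adds the CCA end that synthetases charge, at 7.19 ± 0.689 TPM. Qrsl1 and Tarsl2 were lowest. Tarsl2, a second threonyl enzyme outside the naming rule, was at 0.870, 1.17 and 1.51 TPM and was called with a ratio of 1.58 in CPM, highest in replicate 3. At 4.61 ± 0.154 TPM, Tars exceeded it in every library.

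The cytosolic elongation factors Eef1a1, Eef2 and Eef1b2 stood far above the enzymes that charge tRNA. Eef1a1, which carries aminoacyl-tRNA to the ribosome, was at 1530 ± 28.7 TPM, Eef2, which moves the ribosome along, at 280.5 ± 6.65 TPM and Eef1b2 at 110 ± 2.96 TPM. The mitochondrial elongation factor genes Tufm and Tsfm were at 12.4 ± 1.39 and 3.22 ± 0.0924 TPM, inside the range of the synthetases. Of 9 elongation factor genes, 6 were called (background 49.2%), none with a ratio of 1.3 (background 18.8%).

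The amino acid response list holds the kinase that senses uncharged tRNA and factors that act after it. It also holds genes that these factors are known to drive, as they drive several synthetases. Of 26 members tested, 20 were called (background 49.2%) and 11 of these had a ratio of 1.3 or more (background 18.8%). The amino acid transporter subunit gene Slc3a2 was highest at 112, 126 and 128 TPM, then Ddit3 at 32.6, 36.6 and 32.9 TPM and Atf4 at 22.3, 23.7 and 25.1 TPM. Exons of Ddit3 and Mars overlap on opposite strands, so strand limits both. Ppp1r15a, which encodes a subunit of the phosphatase that reverses the kinase, was at 13.4 ± 0.335 TPM. Many of the low genes were lowest in replicate 1. Trib3 was at 0.838, 1.89 and 1.69 CPM, Asns, the asparagine synthetase, at 3.61, 6.34 and 6.15 CPM, Phgdh at 1.33, 2.36 and 2.89 CPM and Psat1 at 5.11, 6.13 and 10.7 CPM. Mthfd2, Aldh18a1, Slc7a5 and Slc7a1 were also called with ratios between 1.58 and 1.75 and were lowest in replicate 1 and highest in replicate 3. Of the genes called, 4 were highest in replicate 1 and lowest in replicate 3: the cystine transporter gene Slc7a11 at 8.81, 6.02 and 4.0 CPM, Sesn2 at 34.3, 31.1 and 29.2 CPM, Slc38a2 at 53.1, 50.4 and 45.3 CPM, and Ppp1r15a at 38.3, 36.9 and 31.5 CPM. The lowest of the list, Chac1 and Pycr1, were under 0.1 TPM in every library and were not tested. In all, 16 of 26 were lowest in replicate 1 (40.9% of tested genes with a protein_coding transcript) and 9 in replicate 3, and the range of their ratios, up to 2.26, was wider than that of the synthetases.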

How the data were processed

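Every sample has a gene table and 2 transcript tables, made on mm10 with GENCODE M21 per the text files deposited with them. The authors deposited expected counts and TPM in the gene table and in 1 transcript table, whose column layout is that of RSEM. The other transcript table, the second quantification, holds estimated counts and TPM that the authors deposited in the column layout of kallisto. The sources used here do not give the aligner, the quantifiers, their versions, the strandedness or the read layout. The deposited TPM is scaled over all entries, of which protein-coding genes held 24.2%, 24.1% and 26.3% in replicates 1, 2 and 3 in the first quantification and 17.6%, 9.17% and 8.32% in the second. The gene-by-gene comparison of both quantifications was therefore rescaled over protein-coding genes. Level differences and replicate spread in the second quantification used its deposited TPM without rescaling.

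Expected counts were rounded. Entries outside Ensembl genes, 0.449%, 0.203% and 0.141% of the counts, were left out of library sizes. Genes whose counts summed to at least 30 were tested between libraries by chi-square against TMM sizes (edgeR 4.0.16), with Benjamini-Hochberg adjustment. The procedure was run on simulated data that held counting error only, so that run does not cover other variation between libraries. The common coefficient of variation between libraries was 14.4% in an intercept-only edgeR model. Levels and isoform shares have no test. Since nothing says that replicates came from separate animals or cultures, spreads may be technical. Python 3.11.15, R 4.3.3 and DESeq2 1.42.0 (size factors only) were also used. Of the gene lists, all symbols matched except Gcn1 and Tars3, which the files carry under the older names Gcn1l1 and Tarsl2.

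Members, lists and rules were chosen with earlier results of these data known. Named with values in each library were the 5 highest and 3 lowest enzymes of each compartment, the scaffolds, unusual pairs with the 3 largest and smallest differences, members called with a ratio of 1.3 or a noncoding share over 25%, Lars2 for its quantification ratio, isoforms of Gars, Kars and Wars, and of each list its highest, lowest and most variable genes. Farsb, Vars, Gatb, Gatc, Sesn2, Slc38a2, genes that overlap a member and isoforms of other genes were named outside the rule, after their values were seen. Some items that these rules name are counted but not reported here by name or in the figures.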

Additional observations from a re-analysis of the deposited data

How the results depend on the processing

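Settings were changed 1 at a time. Members called between libraries numbered 18 to 21 under other scalings, filters and the second quantification (21 there, against 55.5% of genes), and 8 to 15 with 1 library left out: 8 without replicate 1 (27.5% of genes), 15 without replicate 2 (40.9%) and 13 without replicate 3 (34.4%). The cytosolic list stayed above the mitochondrial list in every setting. The difference was 2.29 with a pseudocount of 0.1 and 1.51 over members whose mean reached 1 TPM, which leaves 11 mitochondrial genes. In the second quantification it was 1.47, on deposited TPM without rescaling and so not on the scale of the main value. It was 2.21 after rescaling TPM of the first quantification over protein-coding genes and 2.13 over protein_coding transcripts. It ranged from 1.81 to 1.94 with 1 library left out. The difference between complex and free enzymes was 0.15 by list means and reversed to -0.066 over protein_coding transcripts, where the TPM of Qars falls to its coding part. Pairs with the cytosolic gene higher in every library numbered 10 of the 12 pairs left when both means had to reach 1 TPM, 15 in the second quantification and 16 or 17 elsewhere. The median noncoding share was 9.21% in the second quantification (4.47% over all genes). It was 2.76% over members at 5 TPM or more, with no background value at that level. Without rescaling, 21 members differed 2-fold or more between quantifications, and the scale of TPM shared by all genes moved too. The median SD of log2(TPM + 1) over libraries was 0.11 for all 39 members and 0.10 for all genes whose mean reached 1 TPM. Only 33 of the members reached that mean, and adding 1 narrows the SD of low genes, so the sets differ in level. The member value ranged from 0.046 to 0.146 with 1 library left out. It was 0.41 in the second quantification (0.46 for all genes), on deposited TPM whose protein-coding share differed between libraries. The alternative over protein_coding transcripts was chosen after seeing the data. No paired analysis was possible because the series has 1 group. Depth limits the mitochondrial genes most: the lowest member held 100 counts in replicate 1.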

Other observations

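Of the 311 annotated transcripts of the members, 1 transcript took over 75% of the gene's TPM in 29 of 39 genes. Exons of 16 members overlap another gene on the opposite strand, among them Hars and Hars2, whose exons overlap each other, Yars and C77080 (33.6 TPM on average), Ears2 and Ubfd1 (8.40 TPM), Aimp1 and Tbck (7.26 TPM) and Aimp2 and Eif2ak1 (7.15 TPM), which encodes a kinase that blocks translation when haem is short. How reads over these overlaps were divided is not given in the sources used here, so levels of low members beside a higher partner are the least certain. Nars divided its TPM between coding transcripts, with Nars-213 at 55.0% ± 1.305, and Sars had 65.0% ± 2.35 in Sars-202. Enzyme level per codon share was highest for tryptophan, at 7.97 TPM of Wars for each percent of codons, and asparagine, at 7.73 TPM of Nars, and lowest for leucine (0.820 TPM of Lars), threonine (0.877 TPM of Tars) and valine (0.882 TPM of Vars). Enzymes differ in how fast they charge tRNA, which these values do not include.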
